A study of Danio rerio with 6 samples.

Results

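Control melanoma from MAZERATI zebrafish was compared with the cells labelled as melanophores from wild-type zebrafish, over all genes that could be tested. These were the 2 libraries labelled as control melanoma (genotype WT, treatment MAZERATI) and the 2 labelled as untreated melanophores of genotype WT, 4 of the 6 libraries of the series. The other 2 carry an mgat4b mutation and entered none of the values below. All 4 libraries came from skin or melanoma biopsies of zebrafish, with an age of 1 month given by the study for MAZERATI and wild-type fish alike. In MAZERATI, plasmids injected into one-cell embryos of the Assam wild-type strain drive the BRAF V600E oncogene in melanocytes and supply guide RNAs against tumor suppressor genes, and mitfa promoters restrict Cas9 and GFP to the pigment lineage. The control melanoma also received a plasmid without an mgat4b guide, which the study calls both an empty vector and a non-targeting control. Because the plasmids are injected, each fish is a mosaic of cells with and without them. The wild-type fish received nothing. Tissue was dissociated with Liberase, filtered and spun on Percoll, and the dense pellet, in which heavily pigmented cells collect, was lysed for RNA. By the study's own account the control melanoma pellet held transformed cells as well as melanocytes. Neither group was sorted by a marker, and the number of fish behind each library is not given in the sources used here, so p-values measure only the spread between these libraries.

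Melanophores, the zebrafish counterpart of melanocytes, descend from the neural crest under the transcription factors Mitfa and Sox10. They make melanin with tyrosinase and its relatives inside melanosomes, on fibrils of the protein Pmel, and share the skin with yellow xanthophores and silver iridophores from the same lineage. Melanoma arises from this lineage when BRAF drives the MAPK cascade and tumor suppressors are lost. A tumor biopsy holds stroma, vessels, nerves and leukocytes beside the tumor cells, and the levels below are those of the whole pellet. In such bulk samples fewer cells of a type and less RNA per cell cannot be told apart.

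The counts summed to 8223044 and 8446997 in control melanoma and to 7351705 and 7121087 in wild-type melanophores, and between 24661 and 25475 of 32520 genes had a count in a library. The libraries were made from ribosomal-depleted total RNA, which keeps short noncoding RNA. In the control melanoma libraries 37.4% and 37.3% of all counts fell on a single gene, rn7sl1, the RNA of the signal recognition particle, against 7.65% and 7.65% in the wild-type libraries. Genes shorter than 400 bases took 50.5% and 50.7% of the counts in control melanoma and 11.1% and 11.2% in wild-type melanophores. Library sizes were therefore corrected for composition by the trimmed mean of M values (TMM), with factors of 0.736 and 0.731 in control melanoma and 1.37 and 1.36 in wild-type melanophores. Levels are counts scaled to these corrected sizes (CPM), and a value given as counts is the raw count of each library. Corrected sizes were 6036984 and 6154709 in control melanoma and 10011362 and 9654717 in wild-type melanophores. Raw counts set side by side therefore understate rises and overstate falls. The log2 fold changes are control melanoma over wild-type melanophores. Replicates were close, with a biological coefficient of variation of 0.0874 between the 2 control melanoma libraries and 0.0668 between the 2 wild-type libraries. Log2 CPM correlated across genes at 0.967 within control melanoma, 0.982 within wild-type melanophores and 0.798 to 0.805 between them, over genes that are not independent of each other.

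**Figure D1:**
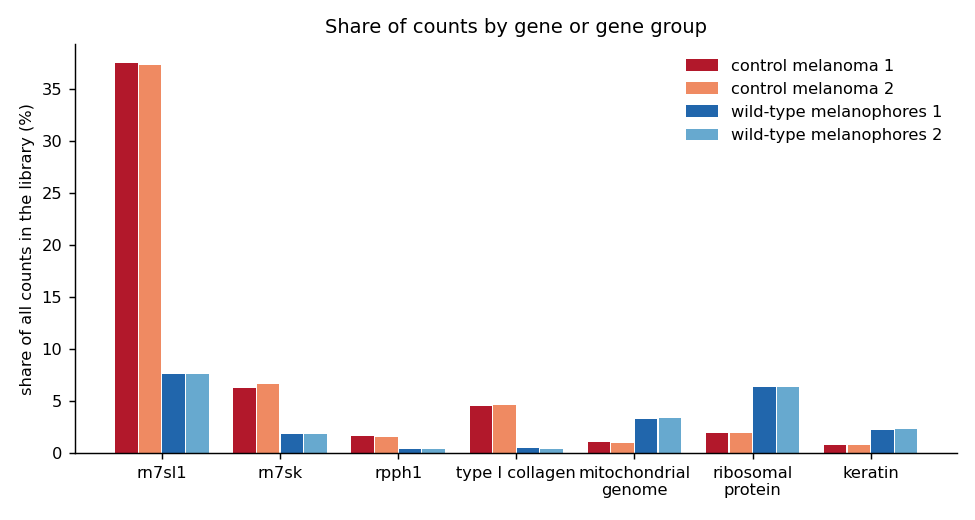
Share of all counts in each of the 4 libraries (vertical axis, percent) for 3 short RNA genes and 4 gene groups, with 1 bar per library. The rn7sl1 bars stand at 37.4% and 37.3% in control melanoma and 7.65% and 7.65% in wild-type melanophores, while ribosomal protein genes took 1.95% and 2.00% against 6.36% and 6.37%.

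Of 19088 genes tested with edgeR's quasi-likelihood test, 3789 were called higher in control melanoma and 2302 lower, where a call took a Benjamini-Hochberg adjusted p below 0.05 together with a log2 fold change of 1 or more in either direction. These are 19.9% and 12.1% of the genes tested, the shares against which each gene list below is read. The median over all genes tested was -0.01 on the log2 scale. Large changes ran mostly upward, with 1877 genes at a log2 fold change of 2 or more but 500 at -2 or less, and 446 against 49 at 4 and -4. Of the called genes, 62.2% were higher. With library totals in place of corrected sizes that share became 18.5%, from 1941 higher and 8568 lower calls, and the median of all genes was then -0.90. Directions given below are relative to the corrected sizes. Of the genes called lower 23 had 0 counts in both control melanoma libraries, and of those called higher 48 had 0 counts in both wild-type libraries. List counts of 2 or fewer moved by up to 2 genes when single libraries were left out.

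The label of the wild-type libraries was set against marker genes first. Melanin genes were close to absent there: pmela, encoding the fibril protein of the melanosome (ENSDARG00000091298, chromosome 11, 3254252 to 3272020), was at 4.49 and 4.66 CPM, and TYR, encoding tyrosinase, the first enzyme of melanin synthesis (ENSDARG00000039077, chromosome 15, 43799258 to 43818697), at 2.20 and 1.55 CPM. The epidermal keratin krt91 (ENSDARG00000036830) stood at 5987 and 5952 CPM in the same libraries, and epcam, an adhesion molecule of epithelia, at 2435 and 2556 CPM. The median over 24 melanin and melanosome genes was 12.8 and 13.1 CPM in control melanoma and at most 3.11 CPM in both wild-type libraries, and that over 41 keratinocyte genes was 204 and 213 CPM and 258 and 218 CPM. No more than 1 of the melanin genes had 0 counts in any library. By these markers the wild-type libraries hold epidermal RNA with little melanophore RNA, and they are called wild-type melanophores here by their label. In control melanoma krt91 was at 3615 and 3631 CPM and epcam at 2305 and 2120.0 CPM.

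**Figure D2:**
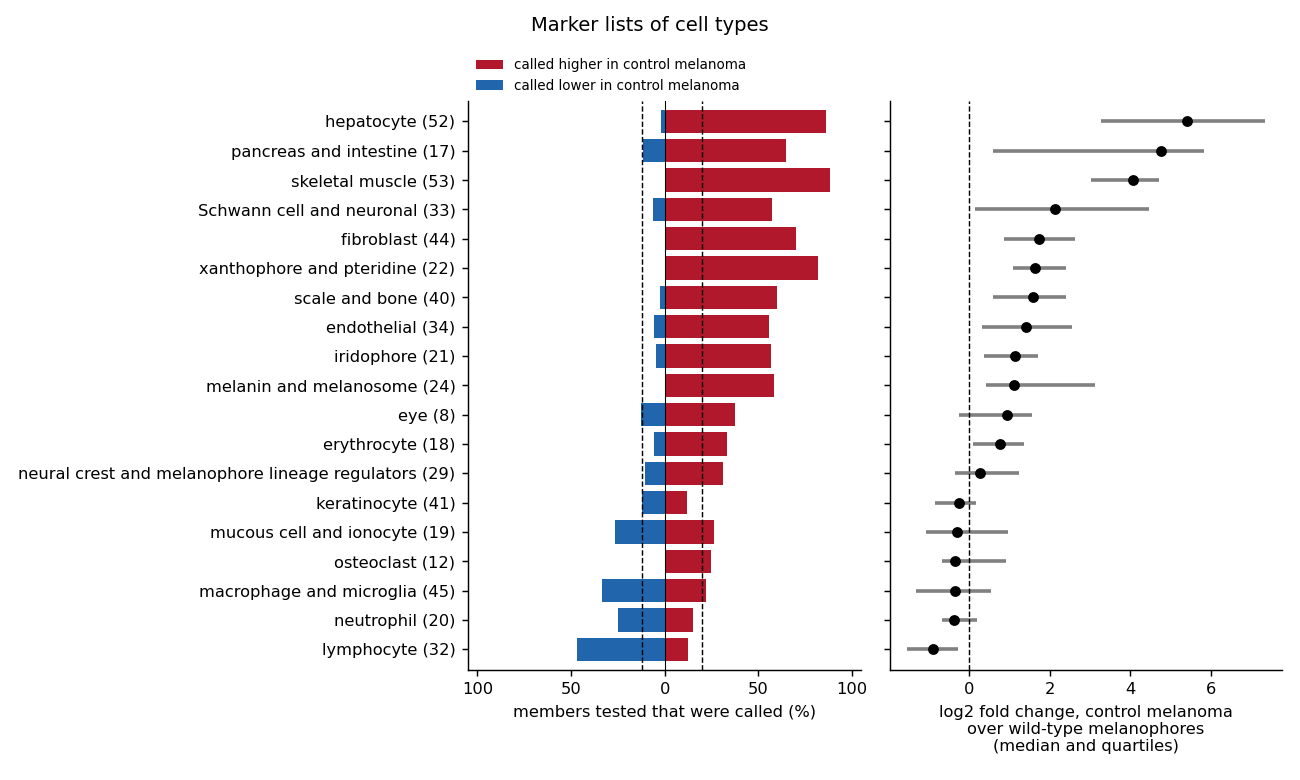
Marker lists of 19 cell types, with the number of members tested in parentheses. The left panel gives the percentage called higher (right of 0) or lower (left of 0) in control melanoma beside the shares of all genes (dashed, 19.9% and 12.1%), and the right panel the median and quartiles of the fitted log2 fold changes beside the median of all genes (dashed). Hepatocyte, pancreas and intestine, and skeletal muscle lists stand highest, at medians of 5.42, 4.78 and 4.08, and the lymphocyte list lowest, at -0.89. Members with enough counts in either group alone were tested, which favors high medians in the hepatocyte and the pancreas and intestine lists.

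BRAF and MGAT4B differed by less than the fold required for a call, and 1 of 2 MITF genes was lower in control melanoma. BRAF (ENSDARG00000017661, chromosome 4, 12074776 to 12102036), the kinase whose mutant form is the oncogene here, was at 17.2 and 17.2 CPM in control melanoma and 11.8 and 9.43 CPM in wild-type melanophores, with a log2 fold change of 0.70 ± 0.20 (SE), short of the fold required. Whether reads of the injected BRAF fall on the zebrafish gene is not given in the sources used here. The same holds for the mitfa minigene that, by the study's account, the original MiniCoopR vector carries. The symbols used do not tell which of the 2 MITF genes below is mitfa. Of the 2 MITF genes, that on chromosome 6 (ENSDARG00000003732) had 16 and 13 counts in control melanoma and 28 and 15 in wild-type melanophores and was not called (0.13 ± 0.49). That on chromosome 23 (ENSDARG00000037833) was called lower, at 3.81 and 7.80 CPM against 13.8 and 12.1 CPM (-1.15 ± 0.26), a call lost without control melanoma replicate 1 (-0.73) and in a fit with all 6 libraries. MGAT4B, the N-glycan branching enzyme that the study is about, was at 16.9 and 17.4 CPM in control melanoma and 26.4 and 26.9 CPM in wild-type melanophores, and at -0.64 ± 0.16 it was short of that fold.

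Pigment genes were higher in control melanoma. Of 24 melanin and melanosome genes tested, 14 were called higher and 0 lower, with a median log2 fold change of 1.11. The 2 TYRP1 genes, which encode an enzyme late in melanin synthesis, rose most. The copy on chromosome 1 (ENSDARG00000056151, chromosome 1, 19332837 to 19346048) was at 82.7 and 84.0 CPM in control melanoma against 2.40 and 2.07 CPM in wild-type melanophores, a log2 fold change of 5.21 ± 0.17 (edgeR adjusted p = 5.1e-31), and that on chromosome 7 was at 96 and 95 counts against 4 and 5 counts. The fibril gene pmela reached 69.9 and 74.1 CPM against 4.49 and 4.66 CPM, a log2 fold change of 3.97 ± 0.15 (edgeR adjusted p = 1.2e-27). TYR was at 23.5 and 21.4 CPM against 2.20 and 1.55 CPM (3.57 ± 0.27). No library of one group overlapped the other for any of these called genes, nor for ATP7A below, which was not called. Such separation is not read as support, as its share over all genes tested is not given here. Smaller in level but called as well were DCT, a melanin enzyme between the other 2 (3.45 ± 0.74, from 14 and 15 counts in control melanoma and 1 and 3 in wild-type melanophores), the melanosome transporters OCA2 (3.02 ± 0.36) and SLC24A5 (4.55 ± 0.59), and the melanosome receptor GPR143 (45 and 53 counts against 10 and 14 counts). MYO5A, the motor that carries melanosomes along actin, rose by less, at 53.0 and 48.9 CPM against 21.5 and 22.5 CPM (1.21 ± 0.13). By mean CPM over the 4 libraries, which is what most abundant means here and below, the most abundant member was ATP7A, a copper pump that also serves other cells, at 48.7 and 49.9 CPM against 61.3 and 65.6 CPM, and it was not called (-0.36 ± 0.10). Even in control melanoma, pmela stayed far below the epidermal genes: per kilobase of gene it averaged 21.0 CPM, against 2066 CPM for krt91.

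Markers of the other 2 pigment cells rose beside those of melanophores. Of 22 xanthophore and pteridine genes, 18 were called higher and 0 lower (median 1.63). The sugar transporters slc2a15b (ENSDARG00000053269, chromosome 1, 31573225 to 31598417) and slc2a15a, of which the first is needed for xanthophores in medaka, had 173 and 189 and 162 and 155 counts in control melanoma and 14 and 18 and 30 and 23 counts in wild-type melanophores. For gch2, which starts pteridine synthesis, the values were 37.9 and 37.2 CPM against 7.29 and 4.76 CPM (2.63 ± 0.19, edgeR adjusted p = 2.6e-17), and for the pteridine enzyme XDH 6.46 and 12.3 CPM against 1.60 and 1.24 CPM. Of 21 iridophore genes 12 were called higher and 1 lower (median 1.13). The defensin defbl1 was at 15.9 and 20.6 CPM against 2.20 and 1.66 CPM, the largest rise of that list. Of 17 genes of purine synthesis, the pathway that iridophores run to make guanine crystals, 1 was called higher and 0 lower, with a median of 0.06 (-0.83 with library totals) and IMPDH2 at 67.1 and 72.3 CPM against 75.1 and 74.9 CPM. The higher call was pnp4b, a purine enzyme (ENSDARG00000029230), with 53 and 85 counts in control melanoma and 0 and 1 in wild-type melanophores. Whether its reads came from iridophores was not tested.

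Regulators of the neural crest and melanophore lineage moved in both directions, with 9 of 29 called higher, 3 lower and a median of 0.28. SOX10, the neural crest factor upstream of mitfa, had 38 and 47 counts in control melanoma and 10 and 16 in wild-type melanophores (2.38 ± 0.41). EDNRB on chromosome 1, an endothelin receptor that guides pigment precursors, was at 14.9 and 13.6 CPM against 3.10 and 4.14 CPM, and ZIC2 on chromosome 9, a crest-inducing zinc finger factor, at 67 and 75 counts against 15 and 7 counts. All 3 were called higher. ETS1, a factor shared by crest, vessels and lymphocytes, fell, at 13.1 and 13.8 CPM against 35.5 and 38.5 CPM (-1.46 ± 0.15). KIT, the receptor that keeps melanocytes alive, was at 38.3 and 44.7 CPM against 29.7 and 37.4 CPM and was not called (0.31 ± 0.13). The lower calls depended on 1 library, since without control melanoma replicate 1 there was 1. Sign and size of the median also hinged on scaling, as with library totals it was -0.62.

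Extracellular matrix genes were higher in control melanoma. The 3 type I collagen genes, which encode the main fibrils of skin and bone, took 4.59% and 4.68% of all counts in control melanoma against 0.532% and 0.459% in wild-type melanophores. COL1A1 (ENSDARG00000035809, chromosome 12, 3095699 to 3133483) was at 21535 and 21825 CPM in control melanoma and 1261 and 1109 CPM in wild-type melanophores (4.19 ± 0.04, edgeR adjusted p = 2.7e-53), col1a1a at 20391 and 20946 CPM against 1219.9 and 1029 CPM, and COL1A2 at 20647 and 21409.9 CPM against 1425 and 1251 CPM. Both control melanoma libraries stood more than 10-fold above both wild-type libraries for each of the 3 genes. Of 44 other collagen genes 38 were called higher and 0 lower, with a median of 2.54. They included the fibril-nucleating COL5A1 (1507 and 1485 CPM against 118 and 117 CPM) and col5a2b (549.9 and 585 against 34.0 and 31.1 CPM), the basement membrane COL4A1 (170.1 and 186 against 14.9 and 17.3 CPM) and the cartilage collagen COL2A1 on chromosome 8 (15.2 and 14.3 against 0.0999 and 0.621 CPM). COL6A3, of the beaded filaments around cells, rose least among those named here, at 1282 and 1294 CPM against 298 and 291 CPM (2.13 ± 0.05).

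The other parts of the matrix followed. Of 99 matrix glycoprotein and proteoglycan genes 78 were called higher and 0 lower (median 1.92), and of 48 collagen processing genes 39 and 0 (median 1.96). SPARC, a collagen-binding glycoprotein, was at 2488 and 2562 CPM in control melanoma against 375 and 395 CPM in wild-type melanophores, and POSTN on chromosome 15, periostin, at 1887 and 1909 CPM against 372 and 387 CPM. The elastin gene elnb (32.8 and 32.7 CPM against 2.10 and 0.518 CPM), the cartilage matrilin MATN4 (27.3 and 27.1 against 1.20 and 1.35 CPM) and the brain proteoglycan bcan (18.1 and 10.4 against 0.899 and 0.621 CPM) were also higher. HSPG2, the perlecan of basement membranes, rose by 1.56 ± 0.06 on the log2 scale, at 373 and 392 CPM against 133 and 127 CPM. Among processing genes, the procollagen proteases BMP1 on chromosome 10 (3.50 ± 0.34) and ADAMTS14 (3.24 ± 0.35), the enhancer of that cleavage pcolcea (2.99 ± 0.11) and the collagen chaperones FKBP10 on chromosome 12 (3.01 ± 0.12) and SERPINH1 on chromosome 15 (2.81 ± 0.12) were all called higher. P4HB, a prolyl hydroxylase subunit that also serves protein folding in general, was the most abundant and was not called, at 338 and 328 CPM against 264 and 280.4 CPM. Matrix proteases and their inhibitors showed 44 higher and 3 lower calls among 81 (median 1.13), with the gelatinase MMP2 at 369.7 and 351 CPM against 129 and 128 CPM, adamts2a at 104 and 96.5 against 12.4 and 14.8 CPM and the inhibitor TIMP4 (ENSDARG00000111805) at 51 and 69 counts against 4 and 10 counts. MMP9, the gelatinase that neutrophils carry, was at 159.5 and 157 CPM against 131 and 141 CPM, within the fold required.

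Scale and bone genes were higher as well, in a list that is not independent of those above. Of 40 genes of scale and bone, 24 were called higher and 1 lower (median 1.58), and of 44 fibroblast genes 31 and 0 (median 1.75). The scale and bone list shares members with the lists above, among them the 2 COL10A1 genes and SPARC. The fibroblast list shares type I collagens and POSTN with them. SP7, the master transcription factor of bone-forming osteoblasts (ENSDARG00000019516, chromosome 6, 58622831 to 58674160), was at 22.2 and 28.3 CPM in control melanoma against 2.20 and 2.49 CPM in wild-type melanophores (3.42 ± 0.25, edgeR adjusted p = 9.2e-17). The 2 genes named COL10A1, a collagen of zebrafish osteoblasts, were at 3483 and 3639 and 1939 and 2007 CPM against 303 and 289 and 220.2 and 211 CPM, and scpp7, of the mineral-binding phosphoproteins, at 814 and 801 CPM against 55.8 and 54.2 CPM. Osteoclast genes, of the cells that resorb bone, did not move as a list, with 3 of 12 called higher, 0 lower and a median of -0.34. The higher calls included NFATC1 (37.1 and 41.9 CPM against 14.4 and 14.9 CPM) and mmp13b (12.1 and 13.3 against 5.89 and 5.90 CPM).

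**Figure D3:**
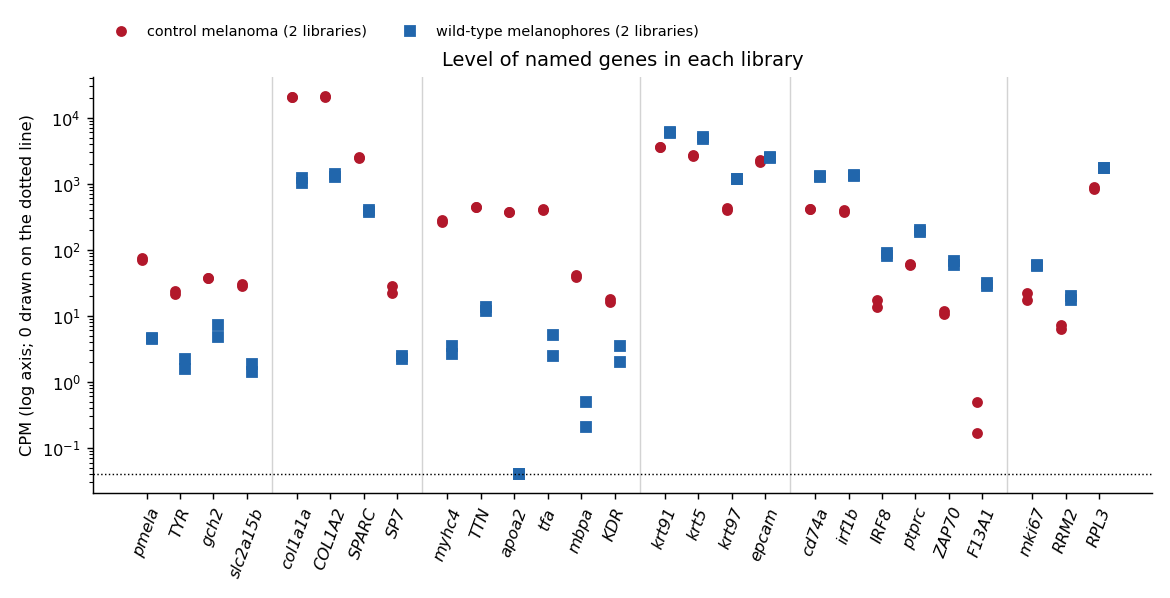
CPM on a log axis in each of the 4 libraries for 27 genes of pigment cells, matrix and bone, other tissues, epidermis, leukocytes and growth (left to right, separated by grey lines), with control melanoma as circles left of wild-type melanophores as squares. TTN is ENSDARG00000000563. Replicates nearly coincide for most genes, and both wild-type libraries lie on the line for 0 at apoa2.

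Genes of liver, gut and skeletal muscle had the 3 largest medians among the 19 cell type lists. The low-count filter passed a gene on the counts of either group alone, which favors high medians in the liver and gut lists. Of 53 muscle genes 47 were called higher and 0 lower, with a median of 4.08. The fast myosin heavy chain myhc4 (ENSDARG00000035438, chromosome 5, 32221755 to 32233862) was at 259.9 and 278 CPM in control melanoma and 2.60 and 3.52 CPM in wild-type melanophores (6.45 ± 0.12, edgeR adjusted p = 1.4e-41). The sarcomeric actin actc1b was at 999.8 and 1074 CPM against 32.2 and 30.7 CPM, the calcium buffer pvalb2 at 476 and 499 against 12.1 and 11.3 CPM, and the 2 titin genes TTN on chromosome 9 at 439 and 440.0 and 448 and 456 CPM against 13.5 and 11.9 and 96.7 and 90.8 CPM. Summed over all 64 matched muscle genes, the level was 6573 and 6748 CPM in control melanoma and 661 and 632 CPM in wild-type melanophores. Of 64 hepatocyte genes matched, 12 had too few counts to be tested. Of the 52 hepatocyte genes tested 45 were called higher and 1 lower. Their median was 5.42, and 5.30 with genes at 0 in both wild-type libraries set to the lower bound that 3 counts per library give. The apolipoprotein gene apoa2 (ENSDARG00000015866, chromosome 16, 23978978 to 23980354) was counted 2224 and 2327 times in control melanoma and never in a wild-type library, at least 1223-fold higher. FGG, a fibrinogen chain (129 and 146 counts), and AGXT on chromosome 2, a peroxisomal aminotransferase (135 and 188 counts), also had 0 counts in both wild-type libraries, at least 73.9-fold and 86.7-fold higher. Transferrin, encoded by tfa, was at 406 and 421 CPM against 2.50 and 5.08 CPM. RBP4, the retinol carrier and the most abundant hepatocyte gene, was at 542 and 567 CPM against 405 and 399.9 CPM and was not called.

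The lists of gut, nerve and vessel genes had more higher than lower calls too. Of 48 pancreas and intestine genes matched, 31 had too few counts to be tested. Among 17 pancreas and intestine genes 11 were called higher and 2 lower (median 4.78, 4.37 at the bound), led by the apolipoproteins apoa1b (206 and 206 CPM against 0 and 0.414 CPM) and apoa1a (133 and 132 counts against none, at least 71.2-fold higher), which the liver makes as well. VIL1, villin of brush borders, went the other way, at 6.29 and 8.61 CPM against 59.8 and 53.2 CPM (-2.92 ± 0.16). Among 33 Schwann cell and neuronal genes 19 were called higher and 2 lower (median 2.14). Myelin basic protein, mbpa (ENSDARG00000036186, chromosome 19, 21814047 to 21832630), was at 40.9 and 39.2 CPM in control melanoma against 0.499 and 0.207 CPM in wild-type melanophores (6.75 ± 0.30, edgeR adjusted p = 3.2e-25). The neuronal RNA-binding protein ELAVL3 had 116 and 103 counts against 2 and 0, and S100B, a marker of glia and of melanocytic tumors, 119 and 136 counts against none, at least 68.5-fold higher. Of 34 endothelial genes 19 were called higher and 2 lower (median 1.41). The vascular growth factor receptors KDR and kdrl (18.1 and 15.9 and 29.5 and 28.3 CPM against 3.50 and 1.97 and 5.49 and 5.18 CPM), vascular cadherin cdh5 (48 and 37 counts against 6 and 1) and the endothelial factor sox18 (13.9 and 8.94 CPM against 1.40 and 1.24 CPM) were called higher. The 2 lower calls, mrc1b (302 and 315 counts against 1411 and 1334 counts) and PROX1 (16.1 and 18.0 against 54.3 and 51.0 CPM), are genes of lymphatic endothelium, and PROX1 has other cell types as well. Of 18 erythrocyte genes 6 were higher and 1 lower (median 0.78, and -0.12 with library totals), among them the band 3 anion exchanger SLC4A1 on chromosome 3 at 289.7 and 266 CPM against 97.2 and 106 CPM, while the globin hbaa1, the most abundant, was at 1243 and 1284 CPM against 732 and 699 CPM and was not called (0.82 ± 0.05). Of 8 eye genes 3 were higher (1 without control melanoma replicate 1) and 1 lower. These lists rose in the same 2 libraries as the collagens and pigment genes, and their part in the rise of any other list was not tested.

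Most epidermal genes were not called, and more of them lay below 0 than above on the corrected scale. Of 41 keratinocyte genes 5 were called higher and 5 lower (median -0.25), both below or near the shares of all genes, and 27 had a log2 fold change below 0. Without wild-type melanophore replicate 1 the higher calls were 3. The basal keratin krt5 (2702 and 2650.5 CPM against 4828 and 5179.5 CPM), superficial keratin krt4 (1456 and 1493 against 2109 and 2126 CPM) and krt91 were all lower in control melanoma within the required fold, at log2 fold changes of -0.90, -0.52 and -0.72. Across 19 keratins 5 were called lower (26.3%, against 12.1% of all genes) and 1 higher (median -0.62). Among the falls was krt97, at 397 and 429 CPM against 1181 and 1179 CPM. Mucous cell and ionocyte genes split, 5 higher and 5 lower of 19, with 3 lower without wild-type melanophore replicate 1. The neighbouring gel-forming mucins on chromosome 25 went in opposite directions, muc5.1 at 189 and 194 CPM against 70.9 and 76.1 CPM and muc5.2 at 140.3 and 151 against 482 and 492 CPM (-1.74 ± 0.06). The lectin itln1 (107 and 98 counts against 4 and 6 counts) and the sodium pump subunit atp1a1a.4 (10.8 and 10.9 against 0.599 and 0.207 CPM) had the largest rises of that list.

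Adhesion genes moved in both directions. Of 70 cadherin genes 47 were called higher and 4 lower (median 1.86), including CELSR3, a planar polarity cadherin of neurons (71 and 61 counts against 2 and 2 counts), the giant cadherin FAT4 (138 and 148 against 25.1 and 24.0 CPM) and the synaptic CLSTN3 (13.1 and 13.3 against 1.30 and 2.28 CPM). Epithelial cadherin, cdh1, was at 922 and 848 CPM in control melanoma and 819 and 858 CPM in wild-type melanophores, with a log2 fold change of 0.08 ± 0.05, and was not called. Of 31 integrins 11 were called higher and 4 lower (median 0.31, and -0.58 with library totals). The collagen receptors ITGA11 on chromosome 25 (49.4 and 52.8 CPM against 5.69 and 7.46 CPM) and ITGA10 (71.7 and 75.2 against 14.7 and 16.9 CPM) and the fibronectin receptor ITGA5 (146 and 139 against 57.4 and 54.6 CPM) rose. The leukocyte integrin itgae.2 fell, at 22.2 and 19.2 CPM against 75.9 and 80.7 CPM (-1.92 ± 0.12), and the hemidesmosome integrin ITGB4 of basal epidermis, the most abundant, did not pass the test (816 and 836 against 857 and 896 CPM). Claudin and tight junction genes had 11 higher and 2 lower calls of 42 (median 0.49, and -0.40 with library totals). The endothelial CLDN5 on chromosome 10 (2.60 ± 0.35) and the glial CLDN11 on chromosome 2 (4.41 ± 0.39) rose, and the most abundant, epidermal cldnb, was at 840.3 and 847 CPM against 1661 and 1604 CPM (-0.95 ± 0.04), not called (but called without wild-type melanophore replicate 2 and by DESeq2). Desmosome and cornified envelope genes were called higher 3 and lower 3 times of 20, and 15 of the 20 had a log2 fold change below 0 (median -0.63). JUP on chromosome 19, junctional plakoglobin, had the largest rise of that list, at 12.6 and 10.7 CPM against 3.50 and 3.94 CPM. The most abundant, dsg2.1, was at 1022 and 1018 against 1413 and 1429 CPM (-0.48 ± 0.04) and was not called. Of 80 focal adhesion and actin genes 20 rose and 6 fell (median 0.19, and -0.70 with library totals), with the talin tln2b (3.19 ± 0.33), the actin-binding cald1a (2.52 ± 0.29) and the tensin tns2b (2.11 ± 0.19) among the rises, while cytoplasmic actin actb2 was at 4009 and 4081 CPM against 4484 and 4488 CPM.

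Transcription factors of epithelial-to-mesenchymal transition and mesenchymal genes had 14 higher and 0 lower calls of 26 (median 1.08). snai1b, which represses cdh1 in the embryo, was at 10.8 and 12.2 CPM in control melanoma against 1.10 and 1.86 CPM in wild-type melanophores (2.95 ± 0.35). The intermediate filament VIM on chromosome 2 was at 50 and 79 counts against 15 and 12 counts, the neural adhesion molecule NCAM1 on chromosome 21 at 41.2 and 42.1 against 6.09 and 7.87 CPM, and the 2 fibronectin genes FN1 at 279 and 305 and 277 and 297 CPM against 79.6 and 74.5 and 139 and 136 CPM. All of these were called, and their replicates did not overlap between groups. The same lack of overlap held for genes that were not called, among them actb2 (-0.15 ± 0.04) and ATP5F1B (-0.19 ± 0.06). Its share over all genes tested is not given here, so it is not read as support. Fibroblasts, muscle and nerve also express the mesenchymal genes named above.

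**Figure D4:**
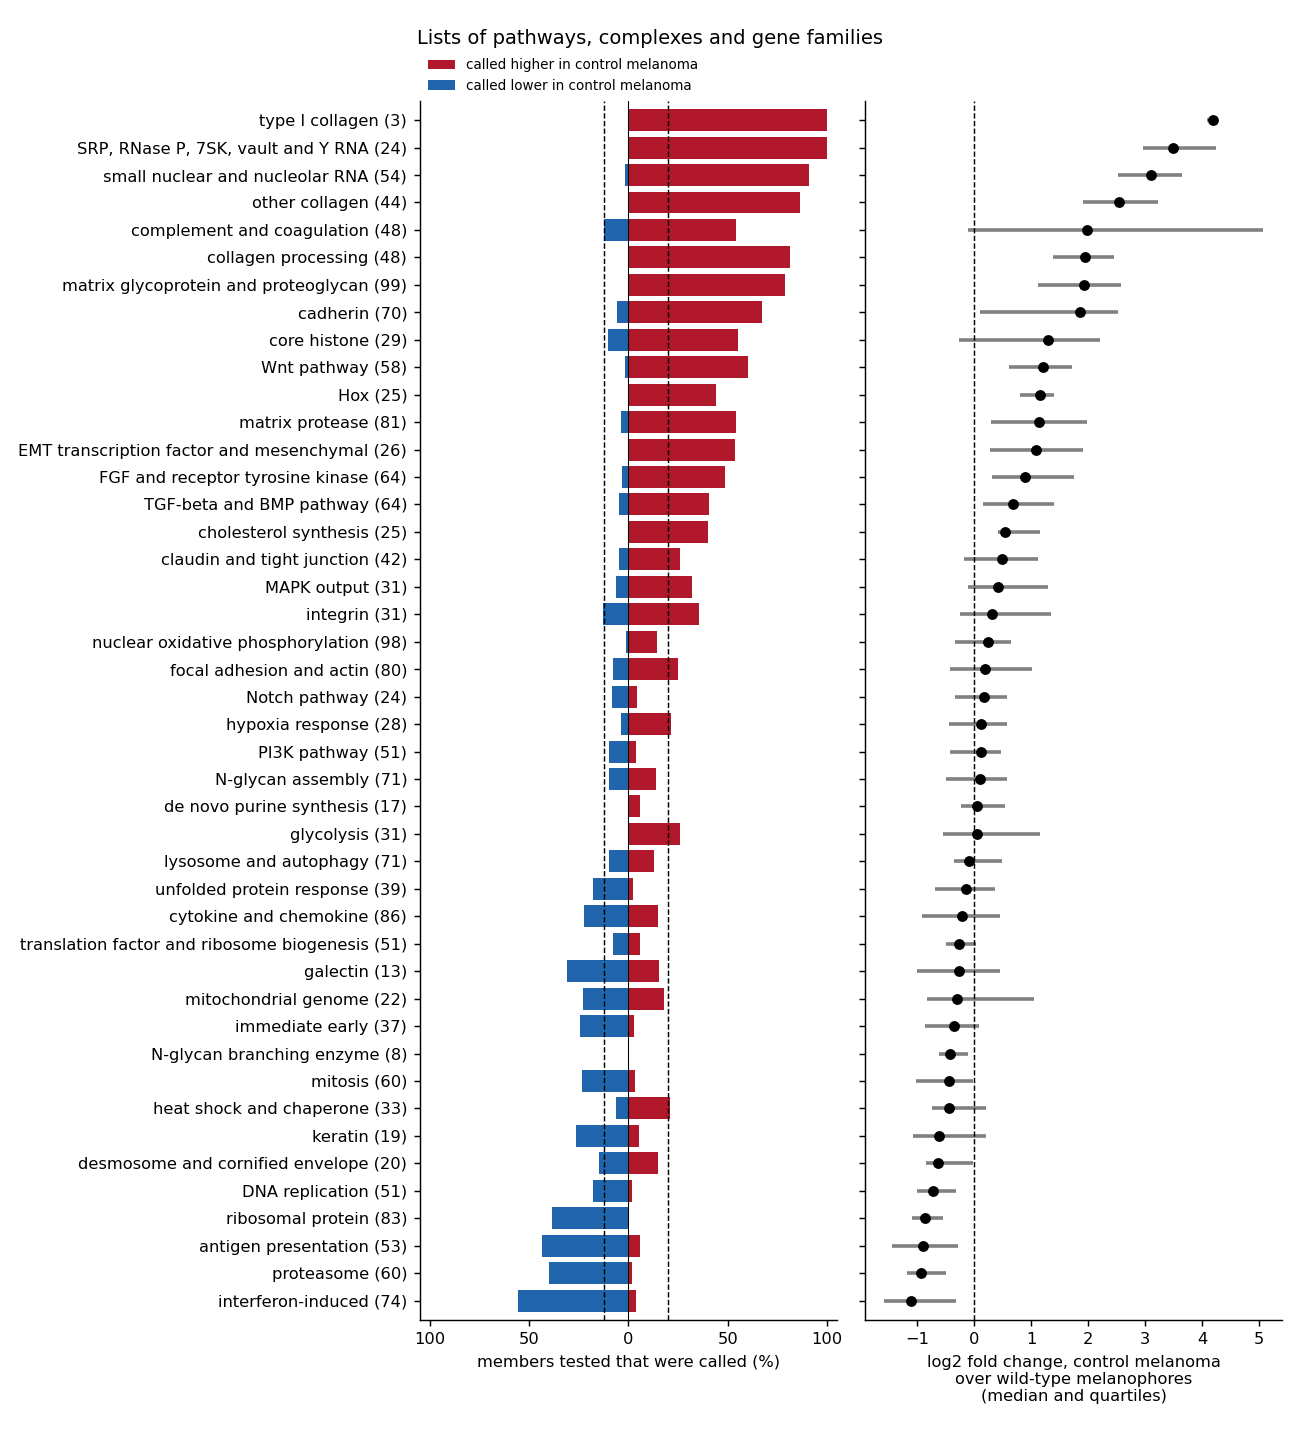
Lists of 44 pathways, complexes and gene families, with the number of members tested in parentheses. The left panel gives the percentage called higher (right of 0) or lower (left of 0) in control melanoma beside the shares of all genes (dashed, 19.9% and 12.1%), and the right panel the median and quartiles of the fitted log2 fold changes. Collagens and short RNA lists stand at the top, with the interferon-induced list lowest at a median of -1.10.

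Signalling outputs of MAPK were mixed. Of 31 MAPK output genes 10 were called higher and 2 lower (median 0.43, and -0.47 with library totals). The ETS factors etv5b (43.7 and 44.4 CPM against 11.2 and 16.2 CPM) and etv5a (300 and 334 counts against 229 and 145 counts), targets of FGF and MAPK signalling, rose, and ETV1, an ETS factor linked to melanoma, had 14 and 24 counts in control melanoma against 1 and 0 in wild-type melanophores. The ephrin receptors named EPHA4 rose as well (2.01 ± 0.22 and 1.83 ± 0.34). No rise was called for 3 phosphatases that switch MAP kinases off. DUSP6 was at 269 and 266 CPM against 388 and 396 CPM (-0.55 ± 0.06), not called, DUSP1 at 922 and 881 against 804 and 839 CPM, not called, and DUSP2 was called lower, at 278 and 253 against 578 and 565 CPM. Cyclin D1, CCND1, was at 30.3 and 30.7 CPM against 28.2 and 26.5 CPM. Immediate early genes, which respond within minutes to growth factors and to tissue dissociation, had 1 higher and 9 lower calls of 37. NR4A1 (361 and 350.5 CPM against 1058 and 1065 CPM) and ier2b (194 and 207 against 706 and 697 CPM) fell, but FOS was level at 1279 and 1306 CPM against 1191 and 1162 CPM.

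Of 51 PI3K pathway genes 2 were called higher and 5 lower (median 0.12, and -0.78 with library totals), and without control melanoma replicate 2 the lower calls were 2. The leukocyte PI3K subunit PIK3CD fell (19.7 and 22.7 CPM against 54.2 and 51.3 CPM) and akt3b rose (12.9 and 10.1 against 3.50 and 2.49 CPM).

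Wnt, growth factor, TGF-beta and Hox lists had more higher than lower calls, and the Notch list did not. Of 58 Wnt pathway genes 35 were called higher and 1 lower (median 1.21), among them the receptor FZD8 on chromosome 24 (3.19 ± 0.36), the coreceptor LRP5 (78.7 and 92.8 CPM against 26.2 and 26.5 CPM) and the secreted antagonists DKK3 on chromosome 25 (2.73 ± 0.33) and SFRP2 (2.56 ± 0.32). The single lower call was TCF7, a Wnt effector that also marks T cells (49.9 and 43.5 CPM against 108 and 98.4 CPM). Of 64 FGF and receptor tyrosine kinase genes 31 rose and 2 fell (median 0.89, and -0.00055 with library totals). The neurotrophin receptor NTRK3 on chromosome 25 (95 and 79 counts against 2 and 5 counts), the ligand pdgfbb (12.3 and 12.3 against 2.30 and 2.90 CPM) and fgfr4 (36.9 and 44.2 against 10.8 and 8.39 CPM) rose, whereas EGFR, an epidermal growth receptor, was at 97.9 and 84.3 CPM against 73.1 and 71.7 CPM and was not called. Of 64 TGF-beta and BMP pathway genes 26 rose and 3 fell (median 0.69, and -0.20 with library totals), with BMP3 (168 and 154 counts against 48 and 62 counts) and FSTL1 on chromosome 9 (165 and 168 against 46.1 and 49.1 CPM) up, BMP10 on chromosome 5 down (1.33 and 1.30 against 9.09 and 8.49 CPM), and the target ID1 not called (-0.41 ± 0.06). Notch pathway genes gave 1 higher call (NOTCH1 on chromosome 5, 1.13 ± 0.14) and 2 lower of 24 (median 0.17, and -0.72 with library totals). Hox genes, which mark position along the body, gave 11 higher and 0 lower calls of 25 (median 1.15), with hoxc3a at 124 and 123 counts against 97 and 78 counts. The higher Hox calls were 6 without control melanoma replicate 2 or wild-type melanophore replicate 2, and 7 without wild-type melanophore replicate 1.

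Most proliferation genes were not called, and those called were mostly lower in control melanoma. Of 60 mitosis genes 14 were called lower and 2 higher (median -0.44), and of 51 DNA replication genes 9 lower and 1 higher (median -0.71). Without control melanoma replicate 2 the lower replication calls were 15. mki67, the antigen used to score cycling cells (ENSDARG00000091150, chromosome 12, 10366617 to 10381282), was at 17.2 and 22.1 CPM in control melanoma against 56.6 and 57.8 CPM in wild-type melanophores (-1.54 ± 0.13, edgeR adjusted p = 1.8e-14). The ribonucleotide reductase subunits RRM1 (18.2 and 15.1 CPM against 38.6 and 35.5 CPM) and RRM2 on chromosome 19 (6.29 and 7.15 against 19.8 and 17.6 CPM), the polymerase subunits POLD1 (-1.30 ± 0.16) and POLA2 (-1.83 ± 0.35), the condensin SMC4 (-1.60 ± 0.14) and the kinetochore gene knl1 (-1.13 ± 0.32) also fell. Calls were lost for POLD1 and for knl1 (-0.73) without control melanoma replicate 1, and for knl1 without wild-type melanophore replicate 2 (-0.89). PCNA, the sliding clamp and most abundant of the replication list, was at 75.9 and 66.1 CPM against 115 and 108 CPM and missed the required fold (-0.65 ± 0.09). The single replication gene called higher was RPA3, at 19.2 and 16.2 CPM in control melanoma against 5.29 and 6.84 CPM in wild-type melanophores.

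Core histone genes, whose messages accumulate in S phase, were called higher more often than lower. Of 29 tested, 16 were called higher and 3 lower (median 1.31). hist1h4l (ENSDARG00000111247, chromosome 25, 35137080 to 35137391, 312 bases) was at 305 and 311 CPM in control melanoma against 27.7 and 30.6 CPM in wild-type melanophores (3.40 ± 0.08, edgeR adjusted p = 4.7e-37), and hist1h2a10, of 387 bases, at 141 and 137 against 21.5 and 18.3 CPM. These genes are near-identical copies in clusters, so the split of reads among them is uncertain. They are also short and lack a poly(A) tail, as do the short RNAs described further on, and the part of gene length in these rises was not tested.

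Calls among ribosomal protein and proteasome genes were almost all lower. None of 83 ribosomal protein genes was called higher and 32 were called lower, with a median of -0.86 (for genes higher at an unadjusted p under 0.05 regardless of fold, the count was 2, and DESeq2 called 0 higher). RPL3, the most abundant, was at 843 and 879 CPM in control melanoma and 1749 and 1741 CPM in wild-type melanophores (-1.02 ± 0.04, and -0.99 without control melanoma replicate 1, where it was not called), and RPL23A (137 and 137 CPM against 473 and 505 CPM) and RPS25 (135 and 129 against 459.7 and 468 CPM) fell most. Of 51 translation factor and ribosome biogenesis genes 3 rose and 4 fell (median -0.26). Nucleolin, ncl, which acts in ribosome assembly, fell as well (113 and 129.7 CPM against 297 and 300.1 CPM), while the elongation factors eef2b and EEF2 differed, eef2b being level (2102 and 2170.1 against 2044 and 1916 CPM) and EEF2 higher (82.2 and 81.9 against 25.3 and 31.7 CPM). Of 60 proteasome genes 24 were called lower and 1 higher (median -0.93). The immunoproteasome subunits PSMB8 (29.2 and 24.7 CPM against 98.3 and 97.1 CPM) and psmb13a (12.4 and 22.9 against 61.4 and 68.3 CPM), which overlap each other on chromosome 19, fell most beside the base subunit PSMC1 (7.95 and 6.34 against 26.4 and 23.7 CPM). Reads from the overlap of PSMB8 and psmb13a cannot be assigned with certainty. PSME4 on chromosome 12, the most abundant member, was not called (-0.18 ± 0.09).

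Chaperones gave 7 higher and 2 lower calls of 33. The share called higher, 21.2%, was near the 19.9% of all genes, and 21 of the 33 chaperones had a log2 fold change below 0 (median -0.44). Summed over matched members, they stood at 3761 and 3857 CPM in control melanoma and 6458 and 6498 CPM in wild-type melanophores. HSPA8 on chromosome 10 was at 1721 and 1794 CPM in control melanoma against 3274 and 3369.8 CPM in wild-type melanophores (-0.92 ± 0.04), just short of the fold required, CCT5 of the chaperonin ring was called lower (-1.02 ± 0.08, and -0.99 without control melanoma replicate 2, where it was not called), and the small heat shock gene HSPB1 higher (65 and 70 counts against 27 and 19 counts). Among 39 unfolded protein response genes 1 was called higher and 7 lower, with MANF, a secreted survival factor, among the falls (5.80 and 5.52 CPM against 20.8 and 16.2 CPM), and the stress-induced CHAC1 was level (579 and 605 against 546 and 557 CPM). Of 71 lysosome and autophagy genes 9 rose and 7 fell (12.7% and 9.86%, both below the shares of all genes). The cholesterol carrier NPC2 (ENSDARG00000096979) was down (4.80 and 5.04 CPM against 26.6 and 32.7 CPM). The proton pump subunits ATP6V0A1 on chromosome 24 (2.78 ± 0.34) and ATP6V1B2 on chromosome 10 (2.31 ± 0.33) were up.

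In glycolysis, paralogs of the same enzyme differed in their change. Of 31 glycolysis genes 8 were called higher and 0 lower, at a median of 0.06 (and -0.84 with library totals). The pyruvate kinase gene PKM on chromosome 25 (ENSDARG00000099860, chromosome 25, 29160102 to 29196558) was at 29.3 and 30.9 CPM in control melanoma against 0.699 and 0.621 CPM in wild-type melanophores (5.48 ± 0.29, edgeR adjusted p = 8.9e-22). The copy on chromosome 18 was at 202 and 204 CPM against 336 and 345 CPM (-0.74 ± 0.06) and was not called. GAPDH, a glyceraldehyde phosphate dehydrogenase (ENSDARG00000043457, chromosome 16, 17189839 to 17200120), was at 197 and 211 CPM against 11.7 and 13.3 CPM (4.03 ± 0.10), and its paralog GAPDHS at 201 and 195 against 231 and 233 CPM (-0.23 ± 0.06). ALDOA on chromosome 12, an aldolase, rose with the first of each pair (29.0 and 27.6 CPM against 1.90 and 2.69 CPM). Hypoxia response genes had 6 higher and 1 lower calls of 28 (median 0.13, and -0.77 with library totals). The share called higher, 21.4%, was near the 19.9% of all genes. EPAS1 on chromosome 13, an oxygen-sensing factor of endothelium, was at 15.6 and 19.0 CPM against 3.20 and 3.31 CPM. The collagen cross-linker LOX was at 15.7 and 14.3 against 3.40 and 2.28 CPM. The glucose transporter SLC2A1 on chromosome 6, the most abundant, was level (242 and 246 against 223 and 202 CPM). Of 25 cholesterol synthesis genes 10 rose and 0 fell (median 0.55, and -0.35 with library totals), among them FDFT1, squalene synthase (41.6 and 43.2 CPM against 10.9 and 12.2 CPM), TM7SF2 (1.64 ± 0.15) and MVK (1.59 ± 0.31).

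Nuclear genes of oxidative phosphorylation were near level, with 14 higher and 1 lower calls of 98 and a median of 0.25 (-0.65 with library totals). Rises included COX4I2 (1.95 ± 0.23), COX7C (1.82 ± 0.09) and NDUFB1 (1.73 ± 0.16), the last a gene of 177 bases, while ATP5F1B, of the ATP synthase, was at 219 and 219 CPM in control melanoma and 249 and 251 CPM in wild-type melanophores. The mitochondrial genome took 1.13% and 0.979% of all counts in control melanoma against 3.27% and 3.44% in wild-type melanophores. MT-CO1, encoding a cytochrome oxidase subunit, was at 3394 and 3111 CPM against 6515 and 7138 CPM (-1.07 ± 0.04). MT-ND6, a complex I subunit, was at 703 and 561 CPM against 76.1 and 77.0 CPM (3.05 ± 0.07, edgeR adjusted p = 6.6e-37), in the opposite direction. Of 22 mitochondrial genes tested 4 were called higher and 5 lower (median -0.30). MT-ND6 is the protein gene on the other mitochondrial strand from MT-CO1, and whether the counting used strand is not given in the sources used here.

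Immune genes were prominent among the falls. Of 74 interferon-induced genes 41 were called lower and 3 higher (median -1.10), of 53 antigen presentation genes 23 and 3 (median -0.89), and of 32 lymphocyte genes 15 and 4 (median -0.89). The interferon regulatory factor irf1b (ENSDARG00000043249, chromosome 21, 45626136 to 45633317) was at 373 and 398 CPM in control melanoma against 1321 and 1352 CPM in wild-type melanophores (-1.79 ± 0.05, edgeR adjusted p = 7.2e-34). The neighbours ifi44a6 (1.66 and 0.812 CPM against 54.9 and 58.8 CPM) and ifi44a8 (1.66 and 0.975 against 33.8 and 28.5 CPM) on chromosome 1, members of an interferon-induced family, fell as well. They are close copies, so reads may be shared between them. MHC class II components fell, with the invariant chain cd74a (ENSDARG00000009087) at 415 and 420.5 CPM against 1309 and 1274 CPM (-1.63 ± 0.05) and the class II gene mhc2dhb at 63.3 and 64.0 against 377 and 393 CPM (-2.60 ± 0.07). The class I gene mhc1zba was at 333 and 338 CPM against 801 and 831 CPM, and its light chain b2m, the most abundant of the list, missed the required fold (-0.82 ± 0.05). Interferon gamma itself, ifng1, was at 18 and 13 counts in control melanoma and 85 and 88 in wild-type melanophores (-1.78 ± 0.34).

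Leukocyte markers fell alongside. ptprc, the CD45 phosphatase of all leukocytes, was at 59.1 and 60.6 CPM in control melanoma against 189 and 200.1 CPM in wild-type melanophores (-1.70 ± 0.08, edgeR adjusted p = 5.3e-24). T cell genes included the receptor kinase ZAP70 (64 and 74 counts against 598 and 662 counts), the receptor chain trbc1 (8 and 12 counts against 182 and 193 counts), cd8a (2 and 11 counts against 48 and 55) and the regulatory factor foxp3a (11 and 16 counts against 91 and 80), all called lower. Of 45 macrophage and microglia genes 15 were called lower and 10 higher (median -0.35). The macrophage factor IRF8 (17.4 and 13.8 CPM against 79.9 and 90.4 CPM), complement c1qb (13.3 and 9.75 against 63.2 and 69.2 CPM) and the leukocyte actin regulator CORO1A (78.4 and 95.5 against 275 and 285 CPM) fell. Genes of the mfap4 cluster on chromosome 1, of which one marks macrophages in zebrafish larvae, rose instead, mfap4.7 being at 16.6 and 18.5 CPM against 1.90 and 1.97 CPM. Of 20 neutrophil genes 5 were lower (3 without control melanoma replicate 2) and 3 higher, with the oxidase subunit NCF1 (168 and 154 counts against 734 and 713 counts) and the receptor CSF3R (28.5 and 29.4 against 66.9 and 72.2 CPM) down and lysozyme, lyz, up (12.3 and 12.2 against 3.10 and 3.42 CPM). Of 86 cytokine and chemokine genes 19 fell and 13 rose (median -0.22), with the chemokine receptor CCR9 on chromosome 2 at 259 and 263 CPM against 623 and 664 CPM and the NF-kB inhibitor nfkbiaa at 423 and 398 against 809 and 858 CPM (-1.02 ± 0.05, not called without control melanoma replicate 2 at -0.98) among the falls, and the granulocyte factor csf3b, at 11.9 and 10.6 against 3.10 and 1.97 CPM, among the rises.

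Complement and coagulation genes also moved in both directions. Of 48 tested, 26 were called higher and 6 lower (median 1.98). The fibrinogen chains FGG and FGB and the complement gene c3a.4 (107 and 113 CPM in control melanoma against 7.29 and 8.18 CPM in wild-type melanophores), products of the liver, rose. F13A1 (ENSDARG00000045453, chromosome 24, 2495197 to 2515623), the transglutaminase subunit found in macrophages and platelets, had 1 and 3 counts in control melanoma against 285 and 305 in wild-type melanophores, a log2 fold change of -6.45 ± 0.35 (edgeR adjusted p = 2.1e-21) and the largest fall among the genes the naming rule ranks. The protease cfd, the most abundant, was not called (455 and 492 CPM against 508 and 514 CPM).

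Genes of N-glycan synthesis, the subject of the study, were called less often than all genes. Of 8 branching enzyme genes 0 were called higher and 0 lower (median -0.42), and 7 had a log2 fold change below 0. An unadjusted p under 0.05 in edgeR's test was reached by 5 of them, and DESeq2 called 1. mgat5, which makes another branch and was the most abundant, was at 51.2 and 60.9 CPM in control melanoma and 102 and 122 CPM in wild-type melanophores, a difference just short of the fold required (SE 0.10 on the log2 scale). Without control melanoma replicate 2 or wild-type melanophore replicate 1 it was called, at -1.13 and -1.15, as it was in DESeq2 at -1.05. Of 71 genes of N-glycan assembly 10 rose and 7 fell (median 0.11, and -0.78 with library totals), ST3GAL3 on chromosome 2, a sialyltransferase, at 18.6 and 14.5 CPM against 4.69 and 3.73 CPM and the fucosyltransferases fut9b.1 (3.48 and 2.76 against 9.19 and 8.60 CPM) and fut9b.2 (3.48 and 3.25 against 10.6 and 9.63 CPM), close copies whose coordinates overlap on chromosome 8. Of 13 galectins, lectins that bind branched N-glycans, 4 fell and 2 rose, with log2 fold changes over the list from -2.44 to 2.69 (median -0.27). The falls were lgals9l1 (5.63 and 10.1 CPM against 40.7 and 45.2 CPM), lgals4 (42.7 and 48.4 against 129 and 127 CPM), lgals1l1 (7.29 and 5.04 against 14.7 and 19.4 CPM) and lgals3b (93.4 and 91.6 against 184 and 187 CPM), the last not called without control melanoma replicate 2 (-0.99).

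Most short noncoding RNAs that could be tested were higher in control melanoma. All 24 tested genes of SRP, RNase P, 7SK, vault and Y RNA were called higher in control melanoma (median 3.49, 3.33 with genes at 0 set to their bound), as were 49 of 54 small nuclear and nucleolar RNA genes, 1 being lower (median 3.10). Of 91 and 646 genes matched to these lists, 67 and 592 had too few counts to be tested. The low-count filter passed a gene on the counts of either group alone, so genes without counts in wild-type melanophores could be tested. rn7sl1 (ENSDARG00000087732, chromosome 3, 30248739 to 30249036, 298 bases) was at 509477 and 511712 CPM in control melanoma against 56157 and 56423 CPM in wild-type melanophores (3.18 ± 0.02, edgeR adjusted p = 3.1e-62). The 7SK RNA rn7sk, which holds an elongation kinase inactive, was at 85669.8 and 91544 CPM against 13455 and 13878 CPM, the RNase P RNA rpph1 at 22276 and 21716 against 2764 and 2859.6 CPM and rmrp, of the related RNase MRP, at 3947 and 3495 against 363 and 428 CPM. The most abundant of 4 SNORA73 copies next to each other on chromosome 20 was at 6693 and 7131 CPM against 448 and 466 CPM. The long noncoding malat1, of 7477 bases and among the 5 most abundant genes of the wild-type libraries, was at 16930.0 and 15699 CPM against 10927 and 10632 CPM and was not called (0.60 ± 0.03). SRP and small nuclear RNA genes have near-identical copies, so counts of single copies are uncertain.

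The share of genes called higher differed with gene length. Among 226 tested genes under 300 bases, 147 were called higher and 12 lower (median 2.63), and among 130 genes of 300 to 400 bases, 77 and 12. The 1647 genes of 400 to 1000 bases had a median of 0.03, with 20.1% higher and 17.9% lower. From there up, the share called higher ran from 16.5% of the 5191 genes in the class from 1000 bases up to 28.8% of the 808 genes in the longest class, where the median was 0.19. The lower share fell over the same classes, at 14.7% and 6.56%. Leaving genes under 300 bases out before library sizes were set gave 3783 higher and 2279 lower calls.

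**Figure D5:**
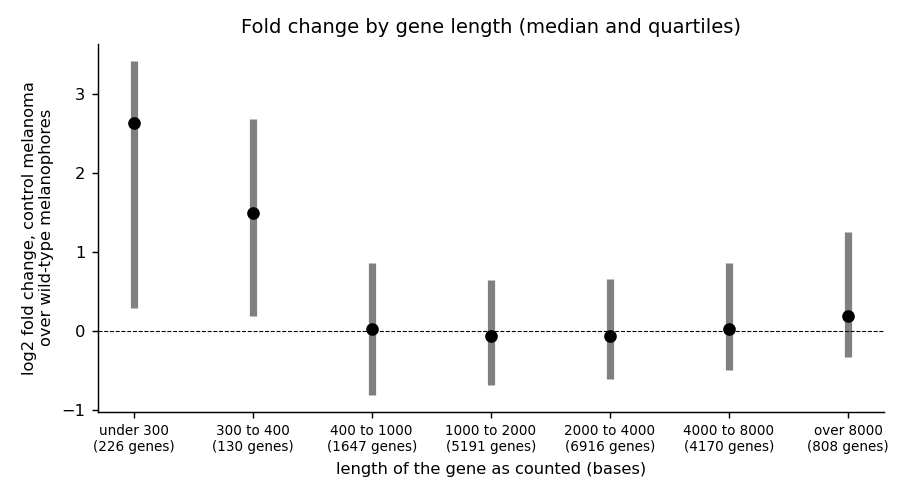
Median (point) and quartiles (bar) of the log2 fold change of control melanoma over wild-type melanophores for genes tested, in 7 classes of gene length as counted (number of genes in parentheses). The 2 shortest classes stand above the other 5, whose medians lie between -0.06 and 0.19.

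By the rule used to name genes, the 12 largest rises were mostly secreted products of the liver. Beside apoa2, AGXT, FGG, apoa1a and apoa1b they were the heme scavenger hpxa (669 and 746 counts in control melanoma against 0 and 1 in wild-type melanophores), the ependymin-family gene epd (1894 and 2036 against 1 and 10), the gluconeogenic G6PC1 on chromosome 12 (173 and 246 against 0 and 1), the fetuin ahsg2 (280 and 274 against 1 and 1), the protease inhibitor serpina1 (149 and 115 against 0 and 1), C20H6orf58 (ENSDARG00000095751) (118 and 161 against 1 and 0) and the glial S100B. All of these but apoa1b and epd had no more than 1 count in a wild-type library. Among the 12 largest falls stood F13A1, ifi44a6, ifi44a8, trbc1, the lymphocyte adaptor SASH3 (76 and 61 counts in control melanoma against 1066 and 1022 in wild-type melanophores), the small GTPase rasd2b (9 and 8 against 279 and 239) and the fatty acid carrier fabp1b.2 of gut and liver (31 and 37 against 588 and 551). The other 5 carry clone names, of which 2, si:ch211-250m6.12 (19 and 14 against 593 and 523) and si:dkey-8o9.2 (39 and 24 against 479 and 454), lie on chromosome 4. The naming rule took only genes whose libraries did not overlap between groups, so that separation in these 24 genes was set in advance.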

How the data were processed

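Ribosomal-depleted stranded total RNA libraries were used, 2 of control melanoma and 2 labelled as wild-type melanophores. The authors deposited raw counts per gene from featureCounts, made after trimming by Trimmomatic and STAR 2.7.8 alignment to GRCz11. The annotation release, strand and multi-mapping settings are not given in the sources used here. Symbols came from a table that matched 29201 of 32520 identifiers, and 1719 symbols stand on several identifiers, which are told apart by chromosome or identifier. Coordinates and gene lengths (summed exon length) are those of the files.

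The 4 libraries were fitted alone with edgeR 4.0.16 in R 4.3.3: TMM library sizes, default low-count filter, quasi-likelihood test, and Benjamini-Hochberg adjusted p over 19088 genes. Genes were called at an adjusted p below 0.05 with a log2 fold change of 1 or more in either direction. The code was tested on simulated data in which both groups had the same composition apart from the genes set to change. That test does not cover the large difference in composition between the groups here. Alternatives, DESeq2 1.42.0 among them, stand in the closing section. Counts of 3 per library served as the floor for genes with 0 counts. Totals ran from 7121087 to 8446997 counts, and single-gene counts carry counting error of their own. Replicates differed beyond counting error (chi-square of 2.52 and 2.31 per gene), so none was taken for a repeat deposit. Coefficients of variation and correlations are as given above.

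The members of the comparison and the 63 gene lists were chosen with earlier results of these data known. Genes were named by rule, the targeted genes first. The 12 largest rises and falls were taken among called genes with a symbol, mean CPM of 10 or more and no overlap between groups. In each list the rule took the most abundant gene and called genes among the 4 most abundant. The 3 called genes of largest change (mean CPM of 5 or more) were also taken. Others, among them TYR, DCT, SOX10, KIT, IRF8, ptprc, cd8a, epcam, krt5, krt4 and cdh1, were singled out after their values were seen. Some genes, the guide targets among them, are not reported here.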

Additional observations from a re-analysis of the deposited data

How the results depend on the processing

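The main counts were 3789 genes higher and 2302 lower. Counts stayed within 1.5 times of these with DESeq2 (3751 higher, 2064 lower), DESeq2's size factors in edgeR (3819, 2259), upper-quartile factors (3653, 2525), no filter on low counts (3952, 2445), genes under 300 bases left out (3783, 2279), the 20 most abundant and the mitochondrial genes left out (3934, 2337), all 6 libraries in one fit (2737, 1749) and an adjusted p under 0.01 (3519, 1973). They moved further with library totals (1941, 8568), at least 10 counts in every library (2497, 1487), a fixed biological coefficient of variation of 0.4 (2321, 710), a minimum log2 fold change of 2 (1877, 500) and, for lower calls, no minimum fold change (5582, 5148). Leaving out single libraries gave 3598 to 3708 higher and 2023 to 2257 lower calls, with 2777 and 1360 genes called in the same direction in all 4 of these fits, in which the group left with 1 library is assumed to vary like the other.

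Deviations from the group means of same-numbered libraries correlated at -0.0037 across genes, which gave no sign of pairing by replicate number. From 2 libraries per group and genes that are not independent, it cannot be told whether same-numbered libraries were processed together. With the replicate block 3697 genes were higher and 2244 lower.

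Of 201 named genes that were called, none was called in the opposite direction under any alternative. Calls were lost for 24 of them with library totals, 42 with the fixed coefficient of variation and 7 when single libraries were left out. Among genes not called, the sign changed with library totals for MITF on chromosome 6 (-0.76), SLC2A1 (-0.69), EGFR (-0.56), BRAF (-0.20), FOS (-0.76), MMP9 (-0.67), KIT (-0.59), CHAC1 (-0.79), hbaa1 (-0.073), malat1 (-0.30), eef2b (-0.78), DUSP1 (-0.76), RBP4 (-0.43), CCND1 (-0.74), cdh1 (-0.82) and P4HB (-0.61). With all 6 libraries it changed for cdh1 (-0.0036), and MITF on chromosome 6 ranged between -0.26 and 0.59 when single libraries were left out (-0.05 without control melanoma replicate 1). Medians of 16 of 63 lists changed sign with library totals, which moved the median over all genes from -0.01 to -0.90. Medians of 5 lists changed sign under any other refit, and the cause of these changes was not tested. The other refits were purine synthesis (-0.02 with all 6 libraries and without control melanoma replicate 2), mitochondrial genes (0.05 with DESeq2, 0.03 with no filter), glycolysis (-0.21 with at least 10 counts, -0.0044 with all 6 libraries), focal adhesion (-0.04 with at least 10 counts) and Notch (-0.06 without control melanoma replicate 1). Depth limits the low genes: in the 4 libraries 13432 of 32520 genes had too few counts to be tested, and 3 counts are the floor behind each lower bound.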

Other observations

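Falls were unevenly spread over the chromosomes. On chromosome 4, 202 of 919 tested genes (22.0%) were called lower and 117 (12.7%) higher, with a median log2 fold change of -0.41, and on chromosome 22, 148 of 736 (20.1%) were lower and 106 higher (median -0.26). Over the other 23 numbered chromosomes the lower share lay between 8.23% and 15.1%. Within chromosome 4 the first 20 Mb had 34 of 379 genes lower (8.97%, median -0.01). From 20 Mb on, in steps of 20 Mb, 45 of 162 (27.8%), 50 of 113 (44.2%) and 73 of 265 (27.5%) were lower, with medians of -0.57, -0.99 and -0.62. Many genes there are near-identical copies of a few families, so that their counts are uncertain. These classes were chosen after the values were seen, carry no test, and the cause was not tested.

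Tested genes without a symbol in the table used, 1041 of 19088, were called lower more often than those with one (21.6% against 11.5%) and higher at 22.4% against 19.7%. On chromosome 25 the share called higher was 28.3%, the highest of the numbered chromosomes.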
